A study of Homo sapiens with 9 samples.

Results

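The genes described here are 10 genes of the AP-1 transcription factor and of the immediate early response, chosen by name: the FOS family (*FOS*, *FOSB*, *FOSL1*, *FOSL2*), the JUN family (*JUN*, *JUNB*, *JUND*) and *EGR1*, *IER2* and *IER3*. They are 10 of the 27860 genes with a level in the tables, and 9 of them are among the 12509 genes that were abundant enough to be tested. Their levels were measured by RNA-seq in DU145 cells, a human prostate cancer line of epithelial origin, in 3 libraries of control cells expressing a scrambled shRNA (labelled scramble), 3 of cells expressing *FZD6* shRNA1 (labelled shRNA FZD6 #1) and 3 of cells expressing *FZD6* shRNA2 (labelled shRNA FZD6 #2). All 9 libraries carry the genotype label WT. The hairpins were delivered with lentiviral vectors, and whether these libraries came from constitutive or inducible vectors is not given in the sources used here. *FZD6* encodes a Frizzled receptor for Wnt ligands, and the comparison asks how lowering it changed gene expression in these cells. The labels call the libraries of a group triplicates and do not say that they came from separate cultures, so the p-values measure the spread between these libraries, which may be technical.

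AP-1 is a dimer of basic leucine zipper (bZIP) proteins. JUN proteins pair with each other or with FOS proteins, while FOS proteins need a partner to bind DNA, and the dimers bind the AP-1 site or the related cAMP response element (CRE). Immediate early genes are transcribed without new protein synthesis when growth factors, stress or adhesion signals reach the cell through the MAP kinases, and many of their messages are short-lived. In epithelial tumor lines *FOSL1*, which encodes FRA-1, is known as an AP-1 subunit with sustained expression, whereas *FOS* and *EGR1* are known for brief bursts after serum is added.

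Where regulatory sequence was at hand, it was searched for the motifs through which such genes are known to be induced. RefSeq promoters (assembly GRCh38.p14, 250 bases before to 50 after the start) were given for 8 of the 10 genes, and *FOSL1* and *IER3* are the ones without. All 8 promoters hold the CRE core, TGACG on either strand, which 24.6% of the 35116 promoters searched and 32.8% of the 13966 promoters of tested genes hold. The windows below show, for each gene, the match nearest the start in capitals (CGTCA where the match is on the opposite strand), printed 5′ to 3′ along the gene, because it is the one searched feature that the 8 share.
FOS: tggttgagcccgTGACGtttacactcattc
FOSB: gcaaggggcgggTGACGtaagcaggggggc
FOSL2: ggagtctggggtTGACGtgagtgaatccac
JUN: gagtctccatggTGACGggcgggcccgccc
JUNB: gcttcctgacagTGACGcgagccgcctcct
JUND: gcaaatgagcgaCGTCAcccgcacccaatg
EGR1: tatggccatgtaCGTCAcgacggaggcgga
IER2: cacccccgccccCGTCAcgccaccatcgag
These windows of GRCh38.p14 all lie in the promoter upstream of the annotated start. On the plus strand, that of *FOS* is at chr14:75278752-75278781, that of *FOSB* at chr19:45467924-45467953, that of *FOSL2* at chr2:28392780-28392809, that of *JUNB* at chr19:12791337-12791366, that of *EGR1* at chr5:138465401-138465430 and that of *IER2* at chr19:13150259-13150288. On the minus strand, that of *JUN* is at chr1:58784153-58784182 and that of *JUND* at chr19:18281691-18281720.

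The other motifs were held by fewer of the 8. The full CRE, TGACGTCA, which contains the CRE core on both strands, was found in *JUND* alone, in 1.85% of all promoters and in 2.94% of those of tested genes. The AP-1 site, TGANTCA, was found just downstream of the start of *FOSL2*, in 7.71% of all promoters and in 4.93% of those of tested genes. TATAAA was found in *FOS*, *JUNB* and *FOSB*, in 11.5% of all promoters and in 5.91% of those of tested genes. The EGR site GCGTGGGCG was found in none of the 8, in 0.795% of all promoters and in 1.28% of those of tested genes. *EGR1* holds the CArG box, the motif bound by serum response factor, at 2 places, which 1.29% of all promoters and 1.09% of those of tested genes hold. The upstream one of these is shown with the box in capitals and lies at chr5:138465364-138465393 on the plus strand.
EGR1 CArG: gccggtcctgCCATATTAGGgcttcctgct
A match says only that the letters occur in the window, and sequence farther from the start was not searched for these motifs.

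AU-rich pentamers in the 3′ UTR, ATTTA, mark many short-lived messages, and they were counted in the GENCODE v29 transcript with the longest 3′ UTR of each gene. This count was added after the levels had been seen. Across 10538 tested genes the median was 1.64 pentamers per kb of 3′ UTR, and 71.5% held at least 1. *IER3* held 6, or 8.14 per kb, and *FOS* held 5, or 6.20 per kb, while *FOSL1* held 1 (1.195 per kb) and *IER2* held none. *JUNB* was at 4.00 per kb, *JUN* at 2.33 and *FOSL2*, with 9 pentamers in a long 3′ UTR, at 1.85. *JUND* was at 1.47 per kb, *FOSB* at 1.39 and *EGR1* at 0.810. The stretches of 30 bases with the most pentamers are shown for *IER3* and *FOS*, the genes with the densest 3′ UTRs, beside that of *FOSL1*, the most abundant gene, with the pentamers in capitals.
IER3: gctcctaattaatATTTAtatgtATTTAtg
FOS: tattgtgtttttaATTTATTTAttaagatg
FOSL1: gagggcagctgctATTTAttttcctaaaga
They lie in GRCh38 at chr6:30743653-30743682 (minus strand), chr14:75282055-75282084 (plus strand) and chr11:65892272-65892301 (minus strand).

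The libraries matched their labels in what could be checked. *FZD6* was at 20.9, 20.5 and 20.0 FPKM (sequenced fragments scaled to transcript length in kilobases and to library size in M) in the scramble libraries, at 9.47, 10.2 and 9.80 with shRNA1 and at 7.84, 8.79 and 7.69 with shRNA2, so that every knockdown library was below every scramble library. The exact two-sided permutation test gave p = 0.0119, the smallest p that the 84 arrangements of 6 and 3 libraries allow, and the log2 change was -1.12 (SE 0.08). All 6 epithelial markers were present, with *KRT7* at the highest level, while *KLK3*, *KLK2* and *TMPRSS2* stayed below 0.05 FPKM. Of 6 leukocyte markers *PTPRC* and *CD3E* were listed at 0 throughout, and the summed level of that list, 18.1 to 19.2 FPKM in scramble, 22.2 to 23.7 with shRNA1 and 26.0 to 27.9 with shRNA2, was mostly *CD68*, a lysosomal protein that epithelial lines also express. The part of *CD68*-expressing cells in the results below was not tested. The depth implied by the confidence bounds was 33.4 to 41.8 M fragments. *FZD6* shRNA2 replicate 2 stood apart from the other shRNA2 libraries for these genes: it was the lowest of its group for 9 of the 10, and the lowest for 35.6% of all tested genes.

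FPKM is scaled to transcript length, so levels of different genes can be set side by side. In scramble cells *FOSL1* was the most abundant of the 10 at 98.2 ± 3.05 FPKM (SD, n = 3), which is above 94.2% of all tested genes when averaged over the 9 libraries. *IER3*, a stress-induced regulator of survival, followed at 72.5 ± 4.29 and *JUND* at 72.2 ± 0.728, and the ranges of these genes overlapped. Next came *IER2* at 36.7 ± 1.202, *JUNB* at 34.4 ± 1.12 and *FOSL2* at 33.9 ± 0.917, of which *JUNB* and *FOSL2* overlapped. *JUN* was at 27.6 ± 0.731 and *EGR1*, a zinc finger factor, at 11.1 ± 0.649. The classic serum-response members were the lowest, *FOS* at 2.03 ± 0.183 and *FOSB* at 0.679 ± 0.0210 FPKM. Apart from the 2 overlapping pairs, no range touched that of the next gene in this order. The place of *IER3* is uncertain, because its level sums 6 listed loci of 1 transcript. Its entry on chromosome 6 alone was at 11.2 FPKM in scramble, near the level of *EGR1*.

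**Figure D1:**
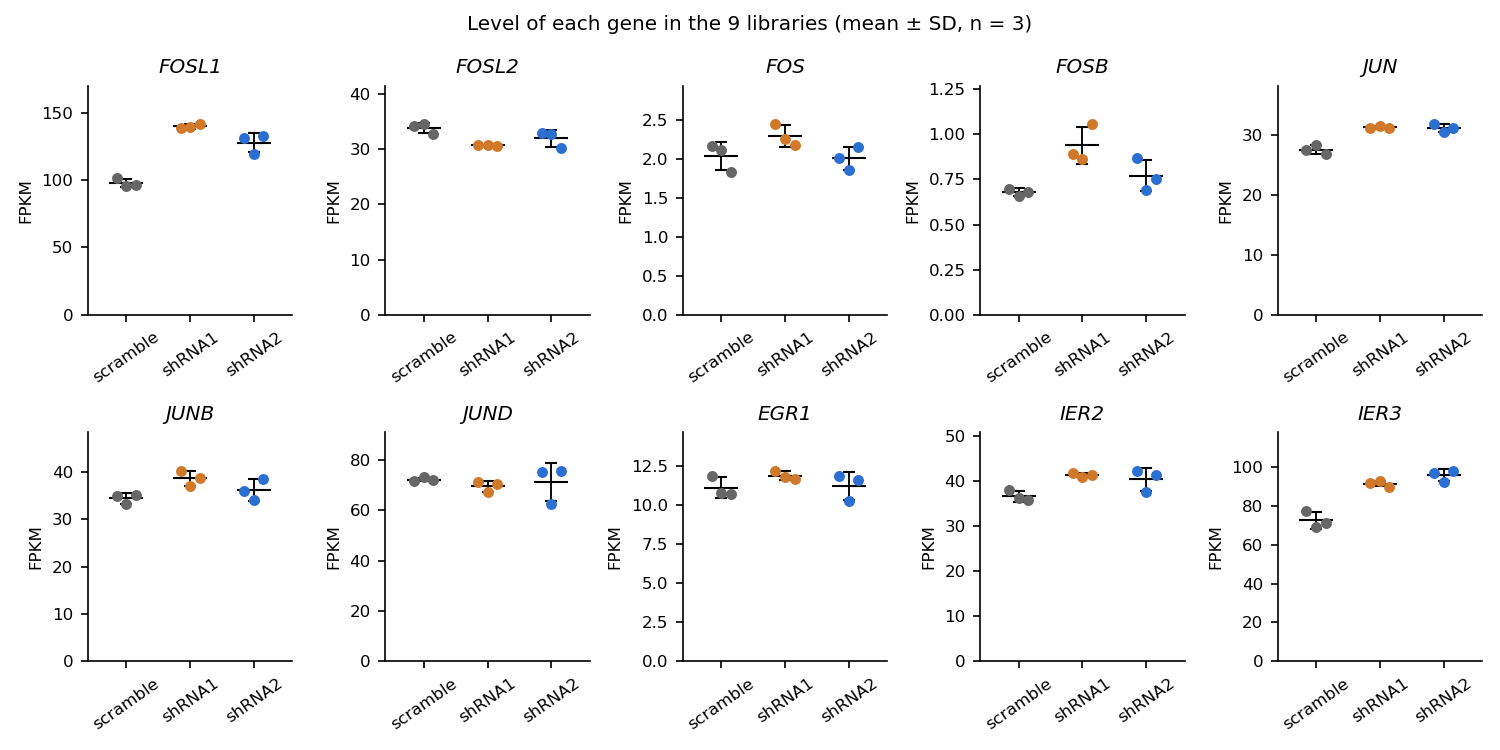
Level in FPKM (vertical axes, each from 0) of the 10 genes in the libraries of scramble cells (grey), FZD6 shRNA1 cells (orange) and FZD6 shRNA2 cells (blue); points are libraries, and bars give the mean ± SD (n = 3). The knockdown libraries lie above all scramble libraries for FOSL1, IER3 and JUN, and shRNA2 replicate 2 (middle blue point) is the lowest blue point in 9 panels.

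With knockdown of *FZD6*, 4 of the 9 tested genes rose and none fell by limma on log2(FPKM + 1) with a Benjamini-Hochberg adjusted p under 0.05 over all tested genes. The genes that rose were *FOSL1* (1.36-fold), *IER3* (1.29-fold), *JUN* (1.13-fold) and *IER2* (1.12-fold), as ratios of mean FPKM. By the same rule 20.6% of all tested genes were called, 13.5% as higher and 7.1% as lower. Of these calls 65.6% were higher, against 49.7% after quantile normalization and 53.6% with the trend in transcript length removed. In such bulk libraries fewer cells that express a gene and less RNA per cell cannot be told apart. The median log2 change of the 9 genes was 0.12, beside 0.03 for all tested genes. The 6 knockdown and 3 scramble libraries did not overlap for 3 of the 9 genes, all higher, beside 25.9% of all tested genes that did not overlap and 16.4% that did so as higher. The 9 genes were not tested as a set, and their count is read beside these shares only.

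*FOSL1* had the largest log2 change of the 9 tested genes for the knockdown as a whole and with shRNA1, while with shRNA2 that of *IER3* was larger (0.40 beside 0.38). Its level was 102, 96.1 and 96.8 FPKM in scramble, 139, 140 and 142 with shRNA1 and 131, 120 and 133 with shRNA2. Every knockdown library was above every scramble library, and every shRNA2 library was below every shRNA1 library. The log2 change was 0.44 (SE 0.05) with limma adjusted p = 0.00253 for the knockdown as a whole, 0.51 with shRNA1 (adjusted p = 0.00179) and 0.38 with shRNA2 (adjusted p = 0.00177). The difference between the hairpins was -0.13 with a 95% interval of -0.23 to -0.03, and did not pass after adjustment (limma adjusted p = 0.131). In the ranking of all 12509 tested genes by their log2 change, *FOSL1* stood 207th from the top.

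The level of *FOSL1* is a sum over transcripts, which did not all differ alike between the groups. The tables split the gene over 6 RefSeq transcripts at its locus on chromosome 11 (65892049 to 65900545 in GRCh38, minus strand). The main protein-coding transcript, NM_005438, was at 48.3 FPKM in scramble, 68.9 with shRNA1 and 63.1 with shRNA2, and kept 49.2%, 49.3% and 49.6% of the gene's sum. NM_001300857 went from 7.55 ± 1.91 to 17.0 ± 2.45 and 19.2 ± 6.84 FPKM (SD, n = 3), or from 7.70% of the sum to 12.1% and 14.9%. NM_001300844 was at 24.5, 32.97 and 26.1 FPKM and the noncoding NR_125339 at 13.6, 15.6 and 15.1. NM_001300855 was at 3.83, 3.902 and 3.09 FPKM, and NM_001300856 was between 0.000674 and 3.69 FPKM over the 9 libraries. With shRNA2 the higher levels were therefore mostly those of NM_005438 and NM_001300857. The transcripts overlap, so reads were divided between them by estimation, and a single transcript ranged more widely within a group than the gene sum did; no test was run on them.

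**Figure D2:**
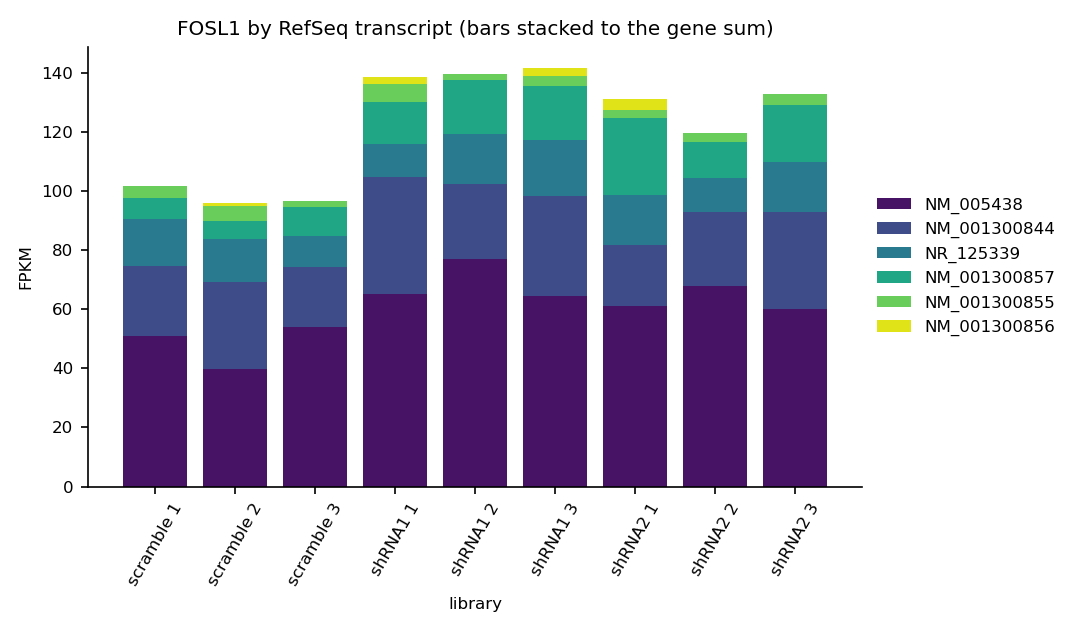
FPKM of FOSL1 (vertical axis) in each of the 9 libraries (horizontal axis), stacked by RefSeq transcript so that each bar is the gene sum. The scramble bars end between 96.1 and 102 FPKM and the knockdown bars between 120 and 142, and NM_005438 is the largest segment in every library.

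*IER3* rose with both hairpins. It measured 77.3, 68.9 and 71.4 FPKM in scramble, 91.8, 92.7 and 89.97 with shRNA1 and 97.0, 92.5 and 98.2 with shRNA2, with no overlap between scramble and knockdown. The log2 change was 0.37 (SE 0.04, limma adjusted p = 0.00229), with 0.33 for shRNA1 and 0.40 for shRNA2, and the difference between hairpins, 0.07, had a 95% interval of -0.04 to 0.17. The one transcript of *IER3* is listed at 6 loci, the gene on chromosome 6 (30743199 to 30744547 in GRCh38, minus strand) and 5 alternate versions of that region with nearly the same values. How reads that map to several of them were divided is not given in the sources used here, so the summed level of *IER3* may count fragments more than once and its place in the order of levels is uncertain. The entry on the chromosome alone was at 11.2 ± 0.628 FPKM in scramble, 14.2 ± 0.226 with shRNA1 and 14.9 ± 0.394 with shRNA2, a ratio of 1.30 for the knockdown.

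*JUN*, the partner that gives AP-1 dimers much of their transactivating strength, rose by less but with little spread. Its levels were 27.6, 28.3 and 26.9 FPKM in scramble, 31.2, 31.6 and 31.2 with shRNA1 and 31.9, 30.6 and 31.2 with shRNA2. All 6 knockdown values were above the scramble values, and the 2 hairpins gave overlapping ranges. The change was 0.17 on the log2 scale (SE 0.03, limma adjusted p = 0.00371), and that of shRNA2 differed from that of shRNA1 by -0.01 (95% interval -0.07 to 0.06).

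For the other JUN genes the test was not passed in any of the 3 comparisons with scramble, although *JUNB* with shRNA1 passed it under some alternatives, such as without shRNA2 replicate 2 or 3. *JUNB*, which can oppose JUN at some promoters, was at 34.97, 33.1 and 35.1 FPKM in scramble, 40.3, 36.9 and 38.6 with shRNA1 and 36.0, 34.0 and 38.5 with shRNA2. All shRNA1 libraries were above scramble, and those of shRNA2 overlapped it, with log2 changes of 0.16 for shRNA1 (limma adjusted p = 0.0685) and 0.07 for shRNA2 (limma adjusted p = 0.359). *JUND*, the JUN gene with the most even expression across tissues, was at 71.8, 73.1 and 71.9 FPKM in scramble, 71.4, 67.2 and 70.4 with shRNA1 and 75.3, 62.5 and 75.8 with shRNA2. The shRNA1 values lay below all scramble values and the shRNA2 values on both sides of them, and the knockdown difference of -0.04 had a 95% interval of -0.17 to 0.09. Without shRNA2 replicate 2, the log2 difference between shRNA2 and scramble for *JUND* went from -0.03 to 0.06.

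*FOSL2*, which encodes FRA-2 and like *FOSL1* codes for a FOS protein without a strong transactivation domain, had lower values. It was at 34.2, 34.5 and 32.8 FPKM in scramble, 30.7, 30.7 and 30.6 with shRNA1 and 32.98, 32.8 and 30.2 with shRNA2. The shRNA1 libraries lay below all scramble libraries and the shRNA2 libraries overlapped them. The log2 change passed with shRNA1 (-0.14, limma adjusted p = 0.0446) but not with shRNA2 (-0.08, limma adjusted p = 0.160) or the knockdown as a whole (-0.11, limma adjusted p = 0.0677). The call with shRNA1 held without any 1 of the shRNA2 libraries and was lost without any 1 of the scramble or shRNA1 libraries, while the knockdown as a whole was called for *FOSL2* without shRNA2 replicate 1 or without shRNA2 replicate 2. The difference between the hairpins was 0.06 with a 95% interval of -0.03 to 0.15.

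*FOS* itself was low and close to scramble. Its values were 2.17, 2.11 and 1.82 FPKM in scramble, 2.44, 2.26 and 2.17 with shRNA1 and 2.01, 1.85 and 2.15 with shRNA2, each resting on about 132 to 189 implied fragments. All 3 shRNA1 libraries were above scramble, with a log2 difference of 0.12 (limma adjusted p = 0.189), and above the shRNA2 libraries, by a difference of -0.13 for shRNA2 against shRNA1 with a 95% interval of -0.27 to 0.0024. The 95% interval of the knockdown change, -0.09 to 0.19 on the log2(FPKM + 1) scale, understates the fold of a gene at this level.

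*FOSB*, the scarcest member, did not reach the mean of 1 FPKM needed for a test. It was listed at 0.700, 0.658 and 0.680 FPKM in scramble, 0.893, 0.866 and 1.06 with shRNA1 and 0.867, 0.694 and 0.754 with shRNA2. The shRNA1 libraries were above all scramble libraries and the shRNA2 libraries overlapped them. When every gene was tested without that limit, *FOSB* passed with shRNA1 (log2 change 0.21, limma adjusted p = 0.0391) but not for the knockdown as a whole (0.14, limma adjusted p = 0.162). Its 2 transcripts were assigned unevenly: NM_001114171 took 76.8% of the gene's FPKM in shRNA1 replicate 3 and 43.3% in shRNA2 replicate 3, and at most 0.274% in each of the other libraries. These shares rest on at most 129 implied fragments for a transcript.

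Among the remaining immediate early genes, *IER2* rose, by a small margin. It was at 38.0, 36.2 and 35.8 FPKM in scramble, 41.8, 40.9 and 41.4 with shRNA1 and 42.3, 37.5 and 41.5 with shRNA2, so that shRNA1 lay above scramble and shRNA2 replicate 2 fell inside the scramble range. The log2 change was 0.15 (SE 0.04, limma adjusted p = 0.0313) for the knockdown, 0.17 with shRNA1 (limma adjusted p = 0.0435) and 0.14 with shRNA2 (limma adjusted p = 0.0684). When the libraries were left out in turn, the call for the knockdown held in 1 of 9 fits, the one without shRNA2 replicate 2. *EGR1* was at 11.9, 10.7 and 10.7 FPKM in scramble, 12.2, 11.8 and 11.7 with shRNA1 and 11.8, 10.2 and 11.6 with shRNA2. Scramble and knockdown overlapped for *EGR1*, and its change of 0.05 had a 95% interval of -0.07 to 0.17 (limma adjusted p = 0.542).

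Counted by hairpin, 5 of the 9 tested genes were called with shRNA1, 4 as higher and *FOSL2* as lower, where 18.8% of all tested genes were called, 11.7% as higher and 7.19% as lower. The shRNA1 and scramble libraries did not overlap for 8 of the 9, *FOSL1*, *IER3*, *JUN*, *IER2*, *JUNB* and *FOS* as higher and *FOSL2* and *JUND* as lower, beside 46.8% of all tested genes (28.9% higher and 17.9% lower). With shRNA2 3 were called, *FOSL1*, *IER3* and *JUN*, all as higher, where 26.7% of all tested genes were called, 15.3% as higher. The same 3 did not overlap between shRNA2 and scramble, beside 40.6% of all tested genes (24% higher). Both comparisons use the same 3 scramble libraries and are not independent. The test of shRNA2 against shRNA1 called none of the 9, where 6.71% of all tested genes were called, and 1 of them, *FOSL1*, was under 0.05 before adjustment. *FOSL1* and *FOS* were lower with shRNA2 than with shRNA1 in every library, beside 26.4% of all tested genes without overlap, 14.5% as lower. The 6 genes with lower values under shRNA2 than under shRNA1 include *FOS*, *FOSL1*, *JUNB* and *EGR1*, and the median of the 9 differences was -0.03, beside 5.8e-05 for all tested genes.

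**Figure D3:**
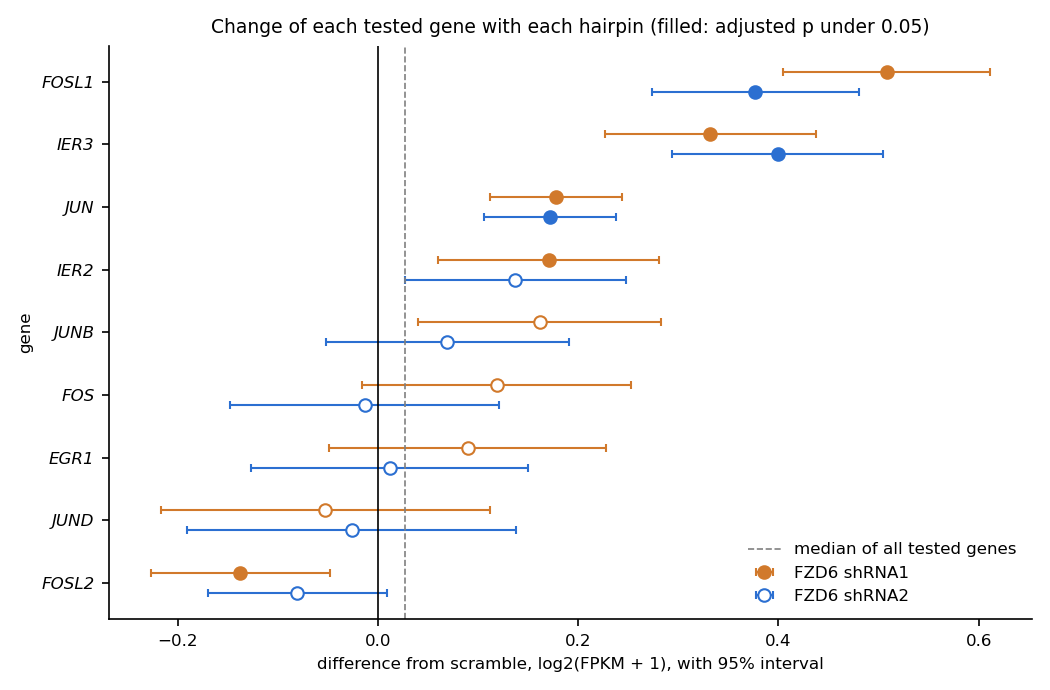
Difference from scramble in log2(FPKM + 1) (horizontal axis) with its 95% interval for the 9 tested genes (vertical axis), for shRNA1 (orange) and shRNA2 (blue); filled points passed at an adjusted p under 0.05, and the dashed line is the median of all tested genes, 0.03. FOSL1, IER3 and JUN are filled for both hairpins, while IER2 and FOSL2 are filled for shRNA1 alone.

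The same levels can be read as shares of the AP-1 message pool. *FOSL1* held 72.9% ± 0.715 of the summed FPKM of the FOS family in scramble, 80.5% ± 0.221 with shRNA1 and 78.6% ± 1.42 with shRNA2 (SD, n = 3), and *FOSL2* held 25.1%, 17.6% and 19.7%. The ratio of *FOSL1* to *FOSL2* was 2.78 to 2.97 in the scramble libraries, 4.51 to 4.63 with shRNA1 and 3.65 to 4.395 with shRNA2. *FOS* held at most 1.58% and *FOSB* at most 0.602% of the family in any library. Within the JUN family *JUND* held the most, 53.8% in scramble, 49.9% with shRNA1 and 51.3% with shRNA2, and *JUN* held 20.6%, 22.5% and 22.6%. The summed FPKM of the FOS family was about that of the JUN family in scramble, a ratio of 1.00 ± 0.0254, and was 1.25 ± 0.0356 with shRNA1 and 1.18 ± 0.0393 with shRNA2. These shares follow from the levels above and were given no test. They keep the trend with transcript length described next, and *FOSL1* has a short transcript and *FOSL2* a long one. With that trend removed, the knockdown log2 changes were 0.36 for *FOSL1* and -0.03 for *FOSL2*, beside 0.44 and -0.11 with it.

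**Figure D4:**
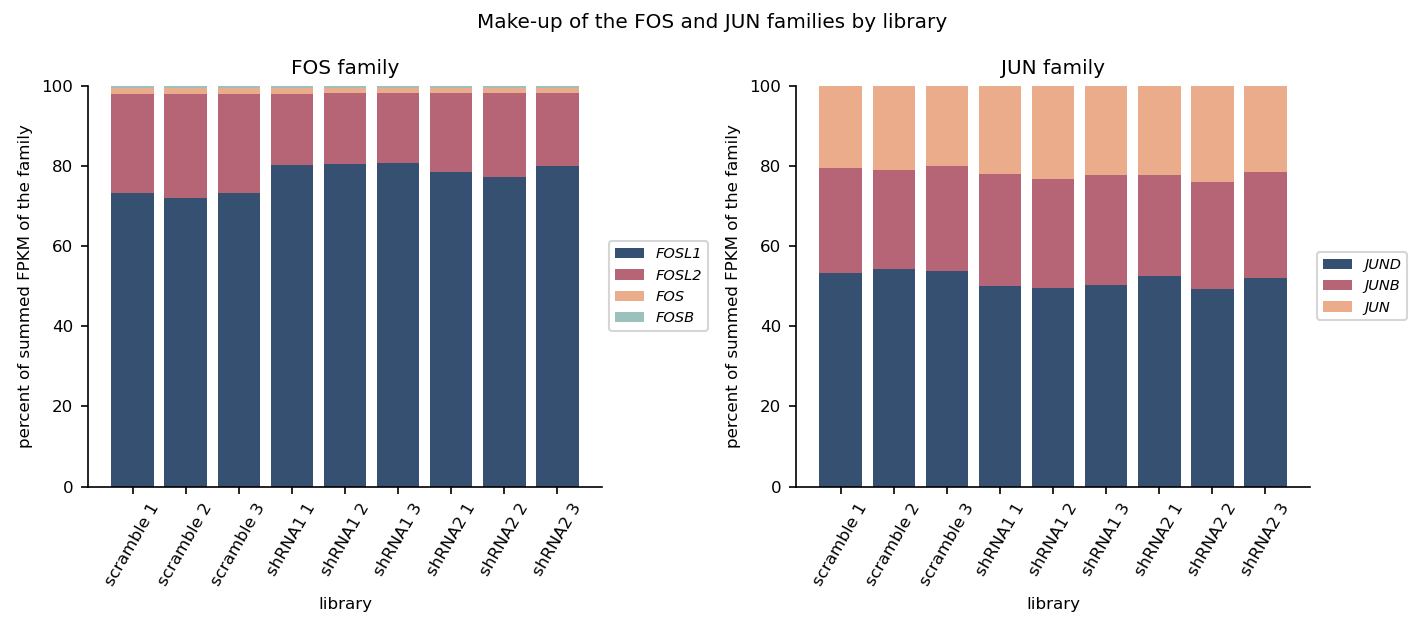
Percent of the summed FPKM of the FOS family (left) and the JUN family (right) held by each gene in each of the 9 libraries (horizontal axes). The FOSL1 share lies between 72.0% and 73.3% in scramble and between 77.2% and 80.7% in the knockdown libraries, and JUND lies between 53.4% and 54.3% in scramble and between 49.2% and 52.6% in the knockdown libraries.

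Transcript length moved with the change across the whole transcriptome. Over 12295 tested genes with a known length, longer transcripts had lower log2 changes with knockdown (Spearman's rho -0.435, across genes, which are not independent). *IER3* and *FOSL1* have short transcripts, longer than 16.7% and 21.8% of tested genes, and *FOSL2* has a long one, longer than 90.6%. Length did not order all the genes: *JUN*, which rose, has a transcript longer than 65.0%, and *JUND*, which was at -0.04 and not called, has one longer than 30.6%. With this trend removed, *FOSL1* (0.36, limma adjusted p = 0.0042), *IER3* (0.27) and *JUN* (0.17) were still called for the knockdown, while *IER2* (0.10, limma adjusted p = 0.128) was not and *FOSL2* was at -0.03. With shRNA1 the trend-free change of *FOSL2* was -0.05 (limma adjusted p = 0.307), so its fall was not called.

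Which genes followed the members over the 9 libraries was described by Pearson's r of log2(FPKM + 1), with no test. The nearest to *FOSL1* were *EIF3D* (r = 0.992), a subunit of the translation initiation factor eIF3, *KARS1* (r = 0.988), the lysyl-tRNA synthetase, and *NSMCE3* (r = 0.987). Those nearest to *IER3* were *NHP2* (r = 0.988), *YBX1* (r = 0.983) and *APEX1* (r = 0.983). *JUND*, the most abundant JUN gene, was followed by *B3GALT6* (r = 0.964), *ISYNA1* (r = 0.960) and *CAPN15* (r = 0.959), and *EGR1* by *NAPA* (r = 0.949), *GTF3C5* (r = 0.943) and *CCNO* (r = 0.941). Values that share a group difference or a library's depth correlate in this way. Among the members themselves *FOSL1* had r = 0.941 with *JUN*, 0.921 with *IER2* and 0.908 with *IER3*, and r = -0.846 with *FOSL2*.

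The next list holds other bZIP factors that can pair with AP-1 proteins. Of 32 listed, 25 were tested, and 6 rose and 1 fell in the knockdown, where 13.5% of all tested genes were called as higher and 7.1% as lower. The median log2 change was -0.02 beside the 0.03 of all tested genes. The count of 7 was 2, 1 and 3 without scramble replicate 1, 2 and 3. The 2578 calls over all tested genes then became 1181, 997 and 1520. *ATF3*, a stress-induced partner of JUN proteins, rose from 9.53 ± 0.0854 FPKM to 12.5 ± 0.343 with shRNA1 and 11.99 ± 0.432 with shRNA2 (log2 change 0.33, limma adjusted p = 0.00120). *DDIT3*, the CHOP protein of the unfolded protein response, rose by 0.32 on the log2 scale, more with shRNA1 than with shRNA2 (difference -0.23, limma adjusted p = 0.00626). *MAFF*, a small MAF protein, rose by 0.27, and *NFE2L1* fell by 0.09. With the length trend removed 2 of the 25 were called, *ATF3* and *MAFF*, and *DDIT3* was at 0.21 (limma adjusted p = 0.0995). Of the 12295 tested genes with a known length, 816 were then called as higher and 705 as lower.

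Of 50 other immediate early genes 44 were tested, and 13 rose and 1 fell, beside 13.5% and 7.1% of all tested genes, with a median log2 change of 0.10 beside 0.03. Their count of 14 was 7, 8 and 7 without scramble replicate 1, 2 and 3, where the 2578 calls over all tested genes became 1181, 997 and 1520. *PPP1R15A*, which directs a phosphatase to eIF2α after stress, rose from 30.2 ± 1.01 FPKM to 41.2 ± 0.206 with shRNA1 and 36.1 ± 0.943 with shRNA2 (log2 change 0.34, limma adjusted p = 0.00747), and *GEM*, a small GTP-binding protein, by 0.33. *ATF3* stands in this list too. *NAB1*, a corepressor of EGR proteins, fell by 0.14. shRNA2 against shRNA1 called 1 of the 44 as higher and 7 as lower, where 1.92% of all tested genes were called as higher and 4.79% as lower. With the length trend removed 10 rose and 2 fell, where 816 of the 12295 tested genes with a known length rose and 705 fell.

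Of 36 kinases and promoter-bound factors upstream of AP-1, 33 were tested, and 2 rose and 5 fell, beside 13.5% higher and 7.1% lower among all tested genes. Their median was -0.01 beside 0.03, and their count of 7 was 4, 3 and 4 without scramble replicate 1, 2 and 3, with none called as higher. Over all tested genes 1181, 997 and 1520 were then called in place of 2578, with 753, 634 and 960 of them as higher. *MAP2K3*, a kinase that activates p38, rose by 0.25 with limma adjusted p = 0.0196. *MAP2K4*, which activates JNK, rose by 0.16 with limma adjusted p = 0.0289. The coactivators *EP300* and *CREBBP* fell by 0.36 and 0.30, and *MRTFB*, a cofactor of serum response factor, fell by 0.31. These messages are long, and with the length trend removed *EP300* fell by 0.23, *CREBBP* by 0.18 and *MRTFB* by 0.19, and these were still called.

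Among 35 genes known as AP-1 targets 24 were tested, and 9 rose and 3 fell, again beside 13.5% and 7.1% of all tested genes, with a median of 0.07 beside 0.03. The chemokine gene *CXCL8* rose from 7.35 ± 0.981 FPKM to 11.6 ± 1.33 with shRNA1 and 12.9 ± 1.03 with shRNA2 (log2 change 0.67, limma adjusted p = 0.00371). *IL11*, a cytokine of the IL-6 family, rose from 10.9 ± 0.551 to 15.4 ± 0.398 and 19.0 ± 0.566 (0.61, limma adjusted p = 0.00434), and more with shRNA2 than with shRNA1 (difference 0.29, limma adjusted p = 0.00772). *AREG*, an EGF receptor ligand, rose by 0.29. *THBS1* (thrombospondin 1) fell by 0.31, and the integrin genes *ITGB4* and *ITGA2* fell by 0.25 (limma adjusted p = 0.00326 and 0.0479). Without the length trend 10 rose and 2 fell, and *ITGA2* was no longer called. Among the 12295 tested genes with a known length, 816 then rose and 705 fell. With quantile normalization 6 of the 24 rose and 5 fell, with a median of 0.03. Over all 12509 tested genes 1047 were then called as higher and 1058 as lower, with a median of 0.01.

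Heat shock genes are induced by many stresses together with immediate early genes. All 16 were tested, and *DNAJB1* (0.20, limma adjusted p = 0.00447) and *HSPA8* (0.17, limma adjusted p = 0.0330) rose and none fell for the knockdown as a whole, where 20.6% of all tested genes were called, with a median of 0.07 beside the 0.03 of all tested genes. Without any 1 of the scramble libraries 1 of the 16 was called. The 2578 calls over all tested genes were then 1181, 997 and 1520 without replicate 1, 2 and 3. The stress-inducible *HSPA1A* and *HSPA1B*, near-identical copies whose reads cannot be told apart well, were at -0.09 and -0.07 (limma adjusted p = 0.161 and 0.171). Their levels in scramble were 74.1 and 73.1 FPKM. These are sums over all listed loci, which may count fragments more than once, as for *IER3*. With entries on the main chromosomes alone, leaving out alternate versions of regions, 15 of the 16 were tested. With shRNA1 alone 2 rose, and *HSPA1A* alone fell, by 0.13 (limma adjusted p = 0.0485). With shRNA2 alone 3 rose, and only *HSPA5*, the chaperone BiP, fell, by 0.19 (limma adjusted p = 0.00303). Of all tested genes 18.8% were called with shRNA1, 11.7% as higher, and 26.7% with shRNA2, 15.3% as higher. With the length trend removed 2 heat shock genes rose and 1 fell, and *HSPA8* was no longer called (0.13, limma adjusted p = 0.108). Of the 12295 tested genes with a known length, 816 then rose and 705 fell. With quantile normalization 1 of the 16 rose and 2 fell, with a median of -0.01. Over all 12509 tested genes 1047 then rose and 1058 fell.

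**Figure D5:**
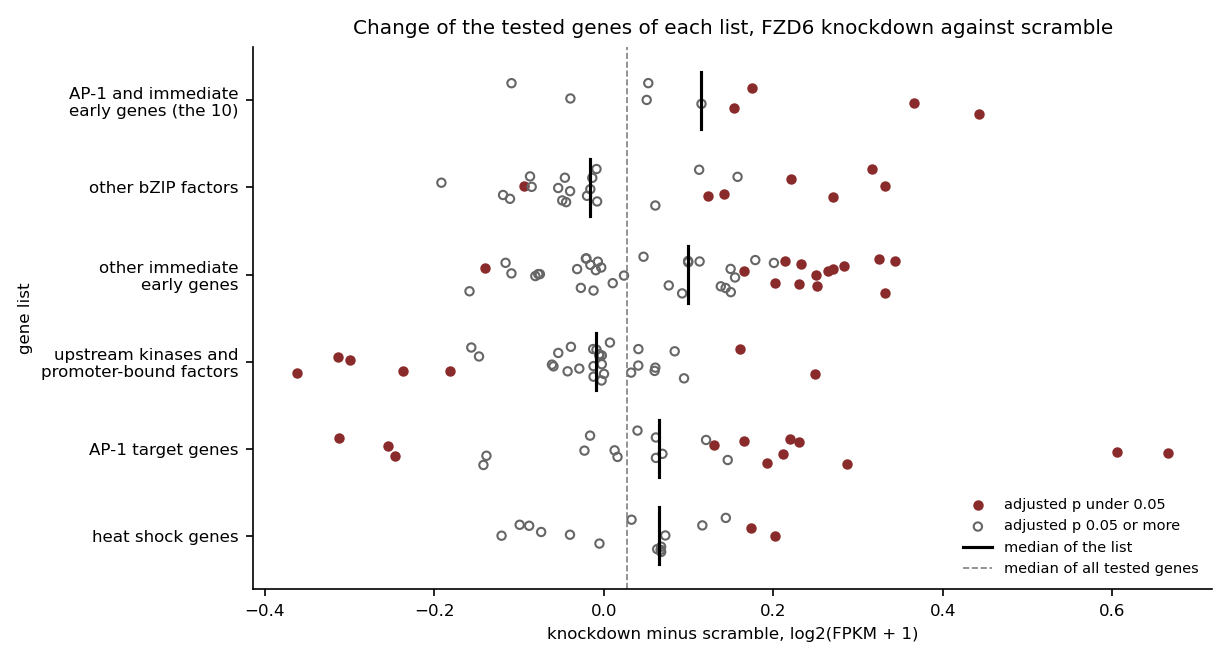
Knockdown minus scramble in log2(FPKM + 1) (horizontal axis) of the tested genes of each list (vertical axis); filled points passed at an adjusted p under 0.05, black lines are list medians and the dashed line is the median of all tested genes. The medians lie between -0.02 (other bZIP factors) and 0.12 (the 9 tested AP-1 and immediate early genes), and CXCL8 and IL11 are the rightmost points of the AP-1 targets.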

How the data were processed

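RNA was sequenced as stranded poly(A) libraries, and the authors used STAR for mapping and Cufflinks for FPKM (versions not given in the sources used here). The deposited FPKM and its confidence bounds are listed per RefSeq transcript and locus of hg38, although the study's methods name mm10. FPKM was summed per gene over 83497 entries (72645 of 73240 accessions matched to RefSeq genes of GRCh38.p14), and 42 genes with an entry not marked usable were left out. Genes that averaged 1 FPKM or more across all 9 libraries were tested on log2(FPKM + 1) with limma 3.58.1 (R 4.3.3), Benjamini-Hochberg adjusted over all 12509 tested genes at 0.05, as knockdown against scramble and, in a model with 3 groups, per hairpin. The deposited FPKM hold no counts, so depth was estimated from the confidence bounds and no count model was fitted. The fits were tested on simulated data.

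The members and the gene lists were chosen with earlier results of these data known. Named genes are all members and *FZD6*, up to 3 called genes with the largest rises and falls per list, and the 3 nearest genes by Pearson's r for *FOSL1*, *JUND*, *EGR1* and *IER3*. *HSPA1A*, *HSPA1B*, *HSPA5*, the markers and the genes under Other observations were named outside this rule. Alternatives were other pseudocounts, filters, scalings, entries and fits, removal of the length trend by lowess (span 0.3), a replicate block and leaving out each library. Protein sequences were not used here.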

Additional observations from a re-analysis of the deposited data

Results flagged for a closer look

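In each of the 10 genes, the highest and lowest of the 6 knockdown libraries were set against the range of the 6 by Dixon's criterion (critical value 0.625), and 2 genes had a library that stood apart. *EGR1* was at 10.2 FPKM in *FZD6* shRNA2 replicate 2, below the other 5 knockdown libraries, which lay between 11.6 and 12.2. *IER2* was at 37.5 FPKM in the same library, with the other 5 between 40.9 and 42.3. Chance flags about 1 in 20 groups. This library was also the lowest of the shRNA2 group for 9 of the 10 genes, with a mean deviation from its group of -0.08 on the log2 scale over the 10 genes and 0.01 over all tested genes. Its depth was within the range of the others, and what sets it apart was not tested. Without it, 6 of the 9 tested genes were called for the knockdown in place of 4, *JUNB* as higher and *FOSL2* as lower being the additional ones. Calls over all 12509 tested genes also rose without it, from 2578 to 3255.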

How the results depend on the processing

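*FOSL1*, *IER3* and *JUN* kept their direction and their call for the knockdown and for each hairpin in all 22 alternatives tried, with knockdown log2 changes of 0.36 to 0.48, 0.27 to 0.41 and 0.14 to 0.19. *IER2* was called for the knockdown in 10 of the 22 (adjusted p 0.00427 to 0.128). With 3 libraries per group, a fit that leaves out 1 rests on few residual degrees of freedom. Leaving out 1 library, the called members ranged from 3 to 6 for the knockdown, 3 to 6 for shRNA1, 3 to 4 for shRNA2 and 0 to 0 between the hairpins. Over all tested genes the main counts of 2578, 2357, 3335 and 839 ranged from 997 to 3255, 917 to 3538, 2097 to 4195 and 333 to 1172, and the knockdown count fell most without scramble replicate 2 (997), replicate 1 (1181) and replicate 3 (1520). The list counts ranged from 1 to 8 for bZIP factors (7 in the main fit), 7 to 17 for immediate early genes (14), 3 to 8 for upstream factors (7), 9 to 13 for AP-1 targets (12) and 1 to 2 for heat shock genes (2).

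With the length trend removed, 1521 genes were called for the knockdown and 1510 with shRNA1, and so were 3 members with shRNA1 and 2 bZIP factors. With each hairpin fitted on its own libraries alone, 3409 genes were called for shRNA1, 2117 for shRNA2 and 337 between the hairpins. With the 3-group spread used for the knockdown, 3455 genes were called, among them 23 immediate early and 4 heat shock genes. The replicate numbers did not pair the libraries: same-numbered libraries had correlations of -0.071 to 0.111 in their deviations from the group means. A replicate block called 2377 genes for the knockdown, 4 members and 1 heat shock gene. It called 6 members with shRNA1, where *JUNB* was added (limma adjusted p = 0.0313), and 4 with shRNA2, where *IER2* was added. Over all tested genes it called 2525 with shRNA1 and 3558 with shRNA2, beside 2357 and 3335 in the main fit. The block together with removal of the length trend called 1108 genes for the knockdown, 1327 with shRNA1, 3 members with shRNA1, 2 bZIP factors, 7 immediate early genes and 4 upstream factors.

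The directions that reversed were of differences near 0 that were not called. *FOS* (knockdown) was at -0.0016 with the length trend removed, with or without the block, and *EGR1* (shRNA2) at -0.0013. *JUN* between the hairpins was at 0.00035 with median centring and 0.0032 with quantile normalization. With 1 library left out, *FOS* with shRNA2 ranged from -0.064 to 0.024, *JUND* with shRNA2 from -0.073 to 0.063 (without shRNA2 replicate 2) and *EGR1* with shRNA2 from -0.025 to 0.072. Between the hairpins *JUN* ranged from -0.021 to 0.0081, *JUND* from -0.021 to 0.12 and *IER2* from -0.067 to 0.018. The cause of these changes was not tested.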

Other observations

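The list of other immediate early genes holds further genes, described here after their values were seen. Of its MAP kinase phosphatases, *DUSP1* and *DUSP6* rose in the knockdown, by 0.23 (limma adjusted p = 0.0153) and 0.25 (limma adjusted p = 0.00794) on the log2 scale, from 32.03 and 3.13 FPKM in scramble, while *DUSP4* was at 0.14 (limma adjusted p = 0.0587) and *DUSP5* at 0.201 (limma adjusted p = 0.285). *PHLDA1* changed by 0.25 (limma adjusted p = 0.00266) and *CSRNP1* by 0.27 (limma adjusted p = 0.00253). The following did not pass for the knockdown as a whole: *MYC* was at 0.15 (limma adjusted p = 0.0587), *NR4A1* at -0.11 (limma adjusted p = 0.177), and the YAP and TEAD targets *CCN1* and *CCN2* at 0.10 (limma adjusted p = 0.146) and -0.0029 (limma adjusted p = 0.980). With shRNA1 alone *MYC* was called at 0.18 (limma adjusted p = 0.0498), *CCN1* at 0.16 (limma adjusted p = 0.00941) and *DUSP5* at 0.402 (limma adjusted p = 0.00423), and with shRNA2 alone *DUSP4* was called at 0.203 (limma adjusted p = 0.00236). *EGR2*, *EGR3* and *EGR4*, relatives of *EGR1*, were each below 0.1 FPKM in scramble and were not tested.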
